A study of Mus musculus with 12 samples.

Results

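Tumors of Dnmt heterozygous and wild type Min/+ mice were compared on the 6 tumor arrays among the 12 arrays of the series: 3 Dnmt+/- tumors and 3 Dnmt+/+ tumors, 1 of each on diet #1, diet #2 and diet #3. All probe sets other than the array's own controls were eligible (12422), and each heterozygous tumor was set against the wild type tumor of its diet. Both groups, and the 6 normal intestine arrays that serve as a reference here, came from male mice 91 days old that carry the Min allele of Apc, so that no sample has a wild type Apc genotype. In the labels the Dnmt gene has no number, the diets have no description, and neither the gut segment of a tumor nor the animal behind an array is given. The p-values below therefore reflect the variation among these RNA samples, which may be partly technical.

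Min is a truncating mutation of Apc, the scaffold that keeps beta-catenin low, and heterozygous carriers form many adenomas along the intestine after the remaining allele is lost. Dnmt1 is the maintenance DNA methyltransferase, which copies methylation of CG dinucleotides onto the new strand after replication. Dnmt3a and Dnmt3b set new methylation. Lowered Dnmt1 activity is known to reduce the number of intestinal adenomas in Min mice.

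Values are normalized intensities, the brightness of a probe set after all arrays were brought to the same distribution, and a difference is heterozygous minus wild type on the log2 scale, so that 1 means a doubling. Values of the diet #1 arrays that lay at the floor of the deposited table were set to a common floor of 144.3, and values of the other arrays under 44.8 to that value. Deposited intensities averaged 306 on the heterozygous and 403 on the wild type tumor array of diet #1 and 1000 on the other 4 tumor arrays. Between 5109 and 5571 probe sets of the diet #1 tumor arrays were at the deposited floor of 50, so small or dim differences cannot be read in that diet. Correlations between tumor arrays ran from 0.847 to 0.981. Epithelial markers, which check the tissue label, were at 56218 to 58428 in summed intensity on the 6 tumor arrays, with heterozygous over wild type ratios of 1.02, 1.04 and 0.97 in diets #1, #2 and #3.

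No gene passed the test. Among 6411 features, limma with Benjamini-Hochberg adjustment called 0 (0%) at an adjusted p under 0.05, and the smallest adjusted p was 0.298. At an unadjusted p under 0.05 there were 363 features, 185 higher (2.89%) and 178 lower (2.78%) in heterozygous tumors, together 5.66%, where this threshold passes 5% of features with no difference. A mean difference over the diets of at least 1.5-fold, with the same sign in each of the 3 diets, was found for 73 features that were higher (1.14%) and 77 that were lower (1.2%); of these, 57 and 59 lay above the floors on all 6 arrays. This is called the 1.5-fold mean criterion, and a single diet may fall short of 1.5-fold under it. With the same sign in all 3 diets at any size there were 786 features that were higher (12.3%) and 845 that were lower (13.2%). Across genes, the differences of the 3 diets were nearly unrelated, with r = 0.054 between diets #1 and #2, 0.065 between #1 and #3 and 0.21 between #2 and #3 (6411 features, which are not independent replicates). What follows therefore describes the genes with the smallest p-values and the largest differences, none of them called.

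The labelled genotype was checked first on Dnmt1. In the deposited table Dnmt1 read 50, the floor, in the heterozygous tumor of diet #1 against 252 in the wild type tumor, 1027 against 1483 in diet #2, and 877 against 1566 in diet #3. The heterozygous tumor was the lower of the pair in every diet, at no more than 19.9%, at 69.2% and at 56.0% of the wild type value. The geometric mean was 42.6% (62.3% over diets #2 and #3), and an exact permutation of signs over 3 diets gave p = 0.25, the smallest it can give. After normalization the difference was -1.05 ± 0.25 (SE, n = 3 pairs; limma adjusted p = 0.757). A second Dnmt1 probe set was dim, at 88.4 against 132 in diet #2 and 12.1 against 15.4 in diet #3, and adds little. In normal intestine the brighter probe set differed by -0.29, with diet #1 at the floor on both arrays. Of 14 tested genes of the DNA methylation machinery, Dnmt1 alone met the 1.5-fold mean criterion; Dnmt3a was too dim to test, and Dnmt3b was not analysed here. Uhrf1, the partner that brings Dnmt1 to newly copied DNA, read 542, 726 and 604 in heterozygous and 591, 662 and 722 in wild type tumors. The 47 tested genes on either side of Dnmt1 in the RefSeq order, a set added with the results known, had a median difference of 0.00, and 0 of them met the 1.5-fold mean criterion. Apc, the mutated gene of this model, differed by 0.30 ± 0.14 (SE; limma adjusted p = 0.817).

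**Figure D1:**
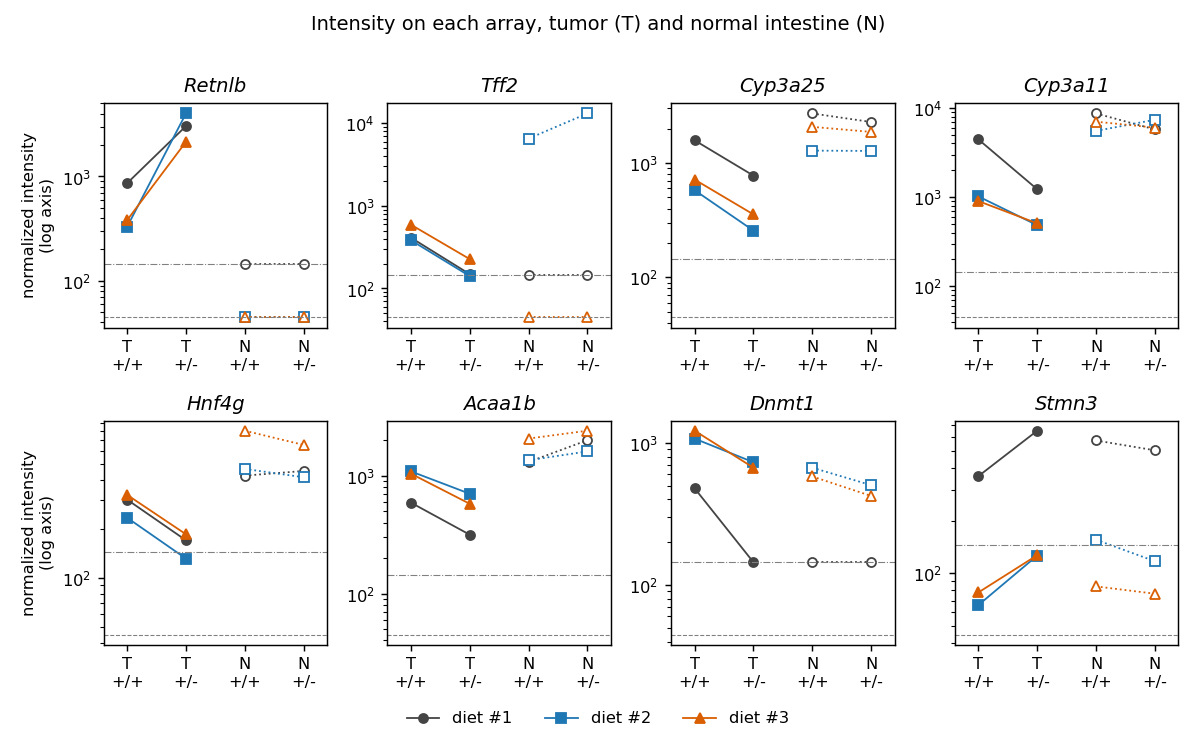
Normalized intensity (log axis) of 8 genes in tumor (T, filled symbols) and normal intestine (N, open symbols), wild type (+/+) joined to heterozygous (+/-) of the same diet; dashed lines mark the floor of 44.8 and dash-dotted lines the diet #1 floor of 144.3. Retnlb was higher and Tff2 lower in the heterozygous tumor of each diet, while Retnlb lay at the floor on all 6 normal arrays.

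Mucosal secreted products headed the genes that were measured above the floors on all 6 arrays: Retnlb had the largest increase and Tff2 the smallest p-value. Retnlb, a cysteine-rich protein that goblet cells secrete into the lumen, read 3038, 4011 and 2147 in the heterozygous tumors of diets #1, #2 and #3 and 861, 330 and 381 in the wild type tumors. Every heterozygous value lay above every wild type value, and the difference was 2.64 ± 0.33 (SE; limma adjusted p = 0.298). Tff2, a trefoil peptide of mucus-secreting cells of the stomach and duodenum, read 149, 141 and 227 in heterozygous and 412, 384 and 592 in wild type tumors. Its groups did not overlap either, its difference was -1.43 ± 0.13 (SE; limma adjusted p = 0.298), and the 3 diets gave -1.47, -1.44 and -1.39. The heterozygous value of diet #1 stood just above the floor of 144.3 there, so the fold of that diet may be understated. In normal intestine Tff2 was at the floor in diets #1 and #3 and read 13124 in the heterozygous and 6525 in the wild type array of diet #2.

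The 2 genes lay on opposite sides of a goblet cell list of which 22 members were tested; 1 was higher and 1 lower by the 1.5-fold mean criterion, and the median difference was 0.10 beside -0.01 over all features (-0.04 beside -0.13 on intensities as deposited). Clca1, a goblet cell secreted protein, read 19710, 20931 and 19201 against 12762, 13774 and 14042, a difference of 0.56 ± 0.13 (SE; limma adjusted p = 0.764). The summed goblet markers had ratios of 1.09, 1.09 and 1.03. Among the Reg lectins, small antibacterial or growth-related proteins, Reg1 read 6634, 597 and 826 in heterozygous and 11167, 6339 and 2924 in wild type tumors, a difference of -1.995 ± 0.48 (SE; limma adjusted p = 0.764), and a second probe set gave -0.68. Reg3g, an antibacterial lectin, went the other way, at 14932, 10433 and 10943 against 9848, 8259 and 4962, a difference of 0.69 ± 0.19 (SE; limma adjusted p = 0.764). The wild type and heterozygous values of Reg1 overlapped between diets, whereas those of Reg3g did not.

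By count, detoxification enzymes were the list with the most members lower in heterozygous tumors. By share, the erythroid (3 of 7 tested) and enteroendocrine (3 of 12) lists had more that were lower by the 1.5-fold mean criterion. Of 43 tested genes of xenobiotic and retinoid metabolism, 6 were lower and 0 higher by the 1.5-fold mean criterion (1.2% and 1.14% of all features), and the median difference was -0.14. At any size 17 were lower and 3 higher in every diet, beside 13.2% and 12.3% of all features. Cyp3a11 and Cyp3a25 are drug- and steroid-oxidising cytochromes P450. Cyp3a11 read 1223, 484 and 507 in heterozygous against 4441, 1018 and 902 in wild type tumors, and the difference was -1.26 ± 0.23 (SE; limma adjusted p = 0.754). Cyp3a25 read 776, 257 and 355 against 1580, 579 and 717, with differences of -1.03, -1.17 and -1.01 in the 3 diets. For both genes each heterozygous tumor lay below its wild type partner, while the groups overlapped because diet #1 was brighter. A probe set shared by Cyp3a11 and Cyp3a16 differed by -1.48, and near-identical members of this family can share signal on the array.

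Gsta4, a glutathione transferase of the same list that clears lipid aldehydes, differed by -1.02 ± 0.19, and Adh1, an alcohol and retinol dehydrogenase, by -0.71 ± 0.14 (SE; limma adjusted p = 0.757 for each). Ces2g, a carboxylesterase outside the list, read 625, 353 and 468 against 937, 694 and 751. In these 3 genes the heterozygous and wild type groups did not overlap. Among the 12 rule-named genes that were lower, 8 had groups that did not overlap, beside 139 of 6411 features (2.17%), and among the 12 that were higher 5 did, beside 121 (1.89%); the rule that named them used the same values.

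Absorptive enterocyte genes were also lower in more members than higher. Of 33 tested genes of brush border and digestion, 5 were lower and 1 higher by the 1.5-fold mean criterion (1.2% and 1.14% of all features). At any size 13 were lower and 1 higher in all diets (13.2% and 12.3% of all features). The median was -0.10, with 0.04 in diet #1. Apoc2, a lipoprotein component that activates lipoprotein lipase, read 9034, 7806 and 6298 in heterozygous and 13840, 11971 and 11018 in wild type tumors. Mme, the brush border peptidase neprilysin, read 430, 319 and 333 against 696, 771 and 477. Slc2a2, the basolateral glucose transporter, read 1656, 915 and 1074 against 2297, 2331 and 1652, and was chosen after its values were seen. The groups of Apoc2 and Mme were separate, while those of Slc2a2 touched (1656 against 1652), and limma's adjusted p was 0.757, 0.757 and 0.764. Slc46a1, the proton-coupled folate transporter of the proximal gut, read 1523, 581 and 535 against 2451, 1244 and 1432, a difference of -1.07 ± 0.18 (SE; limma adjusted p = 0.735). Summed enterocyte markers had heterozygous over wild type ratios of 0.855, 0.758 and 0.625. Among these markers Mep1a was higher in the heterozygous tumors of diets #1 and #3 and lower in that of diet #2. In RNA of whole tumors, fewer cells of a type and less RNA per cell cannot be told apart.

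Hnf4g, a nuclear receptor of the enterocyte programme, read 170, 131 and 185 against 302, 234 and 323, with differences of -0.83, -0.83 and -0.80, and its groups did not overlap. It is dim: the heterozygous value of diet #1 lay near the floor there. Of 34 tested genes of fatty acid oxidation and PPAR targets, 2 were lower by the 1.5-fold mean criterion (1.2% of all features). At any size 14 were lower in all diets, beside 13.2% of all features, and 2 were higher, beside 12.3%. Acaa1b, a peroxisomal thiolase of the last step of beta-oxidation, read 316, 705 and 579 against 592, 1092 and 1044. A second Acaa1b probe set, at the floor in diet #1, differed by -0.30. Fabp1, the cytosolic fatty acid carrier of enterocytes, read 11309, 11092 and 7456 against 17529, 15460 and 11443, a difference of -0.58 ± 0.13 (SE; limma adjusted p = 0.757). Its heterozygous tumors lay below the wild type tumors without overlap, and a second, dim probe set gave -0.04. Sterol synthesis had 0 of 25 tested genes that met the 1.5-fold mean criterion, with 10 lower and 2 higher in all diets at any size (13.2% and 12.3% of all features); Lss, lanosterol synthase, differed by -0.54.

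**Figure D2:**
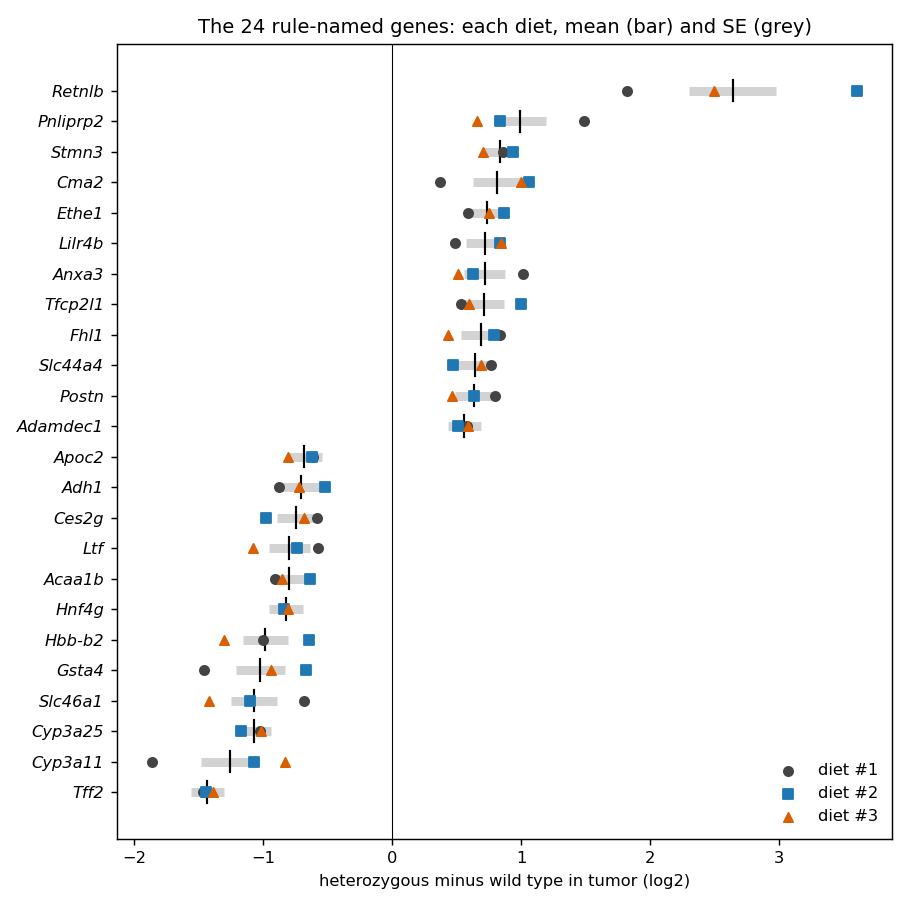
Difference between heterozygous and wild type tumor (log2, horizontal) for the 24 genes named by the rule, with 1 symbol per diet, the mean as a bar and the standard error of the fit in grey. Every symbol of a gene lies on the same side of 0, as the rule required; Retnlb has the widest spread of the 3 diets, from 1.82 to 3.61.

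Because the heterozygous allele concerns an enzyme that methylates CG dinucleotides, the CG content of the promoters is shown for genes that lay on the same side and for contrasting ones. RefSeq promoter sequence (GRCm38.p6, the 250 bases before the gene start) was matched for 16 of the 24 rule-named genes. The 8 higher genes had a median of 5.5 CG and the 8 lower genes of 3.5, against 16 over the 4562 tested genes with a promoter. At most 3 CG were found in 4 of the 8 higher and 4 of the 8 lower genes, and in 9.82% of the tested genes and 38.1% of all 27018 promoters. This is a count of letters on 1 strand, which the other strand shares, and methylation was not measured. Cyp3a11 (chr5:145879855-145880104, minus strand) and Acaa1b (chr9:119157094-119157343, minus strand) hold 2 CG each. Slc46a1 (chr11:78465451-78465700, plus strand), also lower, and Slc44a4 (chr17:34914216-34914465, plus strand), which was higher, hold 11 each. In the sequences below, written 5′ to 3′ on the strand of the gene, capitals mark CG.
Cyp3a11: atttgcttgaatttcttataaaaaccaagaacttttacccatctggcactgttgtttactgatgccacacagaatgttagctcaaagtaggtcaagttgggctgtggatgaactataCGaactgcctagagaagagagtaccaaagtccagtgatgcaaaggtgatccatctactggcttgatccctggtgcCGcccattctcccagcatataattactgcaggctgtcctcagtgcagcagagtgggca
Acaa1b: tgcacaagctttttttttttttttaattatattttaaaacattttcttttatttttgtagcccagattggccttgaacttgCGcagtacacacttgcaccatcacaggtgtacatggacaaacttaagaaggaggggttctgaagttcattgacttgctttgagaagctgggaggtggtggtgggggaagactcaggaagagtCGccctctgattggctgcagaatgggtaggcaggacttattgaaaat
Slc46a1: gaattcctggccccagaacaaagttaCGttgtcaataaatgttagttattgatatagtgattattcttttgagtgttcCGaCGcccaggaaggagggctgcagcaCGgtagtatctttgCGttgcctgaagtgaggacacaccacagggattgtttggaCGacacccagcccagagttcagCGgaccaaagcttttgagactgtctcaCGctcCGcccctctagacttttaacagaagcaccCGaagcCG
Slc44a4: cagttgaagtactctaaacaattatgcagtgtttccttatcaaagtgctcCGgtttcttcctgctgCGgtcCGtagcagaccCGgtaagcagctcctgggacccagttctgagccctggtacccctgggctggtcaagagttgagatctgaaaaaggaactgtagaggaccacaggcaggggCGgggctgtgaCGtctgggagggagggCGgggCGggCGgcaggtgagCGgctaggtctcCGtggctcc
Both sets thus had lower medians than the tested genes. The 11 CG of Slc46a1 and of Slc44a4 also lie under the median of 16 of the tested genes.

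Genes that mark positions along the gut were among the largest differences, mainly in diets #2 and #3. The list of proximal and distal gut segment genes had 21 tested members. By the 1.5-fold mean criterion 1 was higher and 2 were lower (1.14% and 1.2% of all features). These members were Car4 (0.87), Gata4 (-0.82) and Cck (-0.86). The list median was 0.24, but it was -0.06 over the 15 members above the floors on every tumor array. It was 0.06 when no dim probe sets were dropped. The list joins proximal and distal genes, so its median shows no direction along the gut. Gata4, a transcription factor of the duodenum and jejunum that is absent further down, read 227, 387 and 376 against 596, 500 and 614, and its groups did not overlap. Car4, a membrane carbonic anhydrase abundant in the colon, read 1291, 1422 and 1925 against 436, 1237 and 1081. Aqp8, a water channel of the colon surface, read 160, 217 and 178 against 144.3, 122 and 120. Fgf15, an enterocyte hormone of the ileum, was at the floor on both arrays of diet #1 and read 394 and 341 against 262 and 126 in the other diets.

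Car1, the cytosolic carbonic anhydrase of colon surface cells and of red cells, gave the widest gap of the table in diet #2. It read 5091 and 4039 in the heterozygous tumors of diets #2 and #3, and was at the floor of 44.8 in the wild type tumors of those diets. Both tumor arrays of diet #1 were at the floor of 144.3 there. The fold in diets #2 and #3 is therefore set by the floor. Over all 3 diets the difference was 4.44 ± 1.32 (SE; limma adjusted p = 0.798). Without diet #1 it was 6.66 with a limma adjusted p of 0.000448, and Akp3 (-3.96, adjusted p = 0.0245) and Saa2 (2.48, adjusted p = 0.0357) passed as well, which makes 3 calls from 4 arrays. Globin mRNA of the same tumors is given below, and the source of the Car1 signal was not tested.

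Several further genes were picked for their size in diets #2 and #3 after their values were seen. Akp3, the alkaline phosphatase of the duodenal brush border, read 1298, 60.6 and 50.6 in heterozygous against 977, 1280 and 577 in wild type tumors. The heterozygous tumor of diet #1 was thus as high as the wild type tumors, and those of diets #2 and #3 were close to the floor. Slc11a2, the iron importer of the duodenum, followed the same order, at 2903, 282 and 342 against 2161, 906 and 1930. Hoxb13, a posterior homeobox gene, read 153, 319 and 338 against 170, 108 and 66.8. Muc1, a membrane mucin, was at the floor in the heterozygous tumor of diet #1 and read 355 and 317 against 114 and 69.6 in the other diets. Saa2, a serum amyloid A gene, was at the floor on both arrays of diet #1 and read 1196 and 879 against 240.5 and 140 in diets #2 and #3. Krt36, a hair-type keratin, read 591 and 996 against 247 and 184 in those diets. Position along the gut is not in the labels, and its part in these values was not tested. Cdx2 and Cdx1, homeobox factors of the whole intestine, differed by 0.27 and 0.21, and Lct (lactase) by -0.25.

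**Figure D3:**
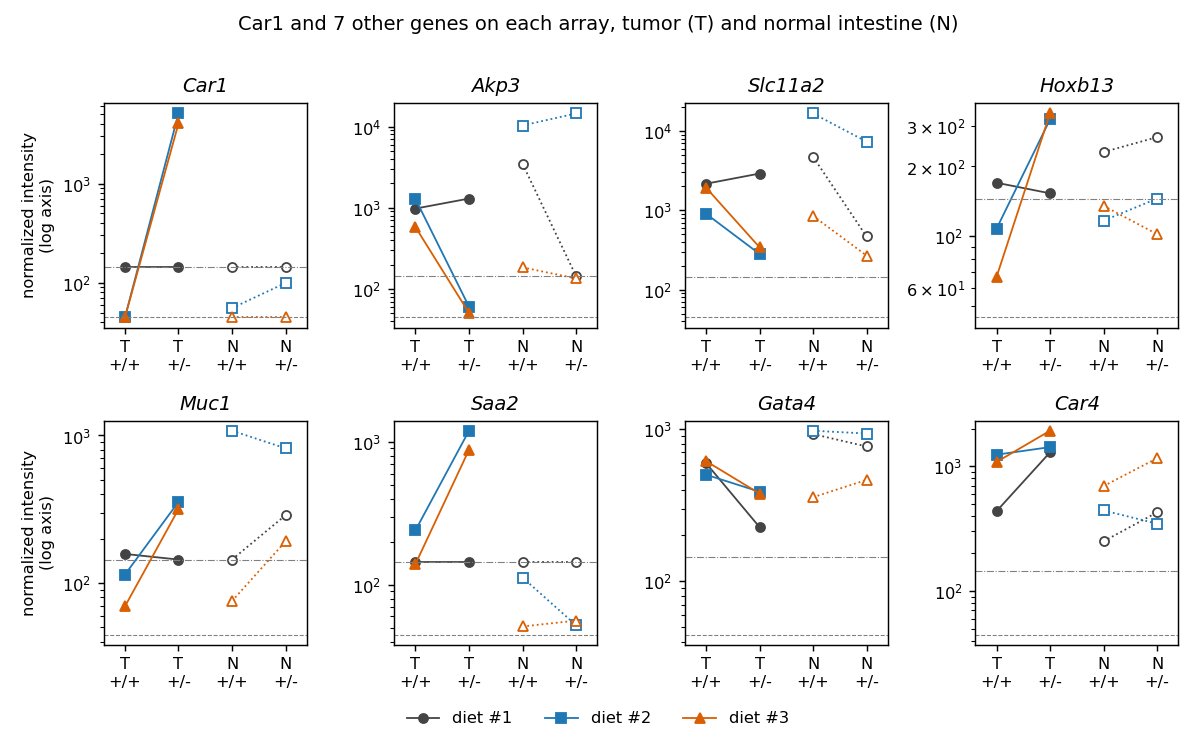
Normalized intensity (log axis) of 8 genes, drawn as in the plot of Retnlb and Tff2. Car1 and Saa2 are at a floor on both tumor arrays of diet #1 and lie between 879 and 5091 in the heterozygous tumors of diets #2 and #3; Akp3 and Slc11a2 are low in the heterozygous tumors of those diets and not in that of diet #1.

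**Figure D4:**
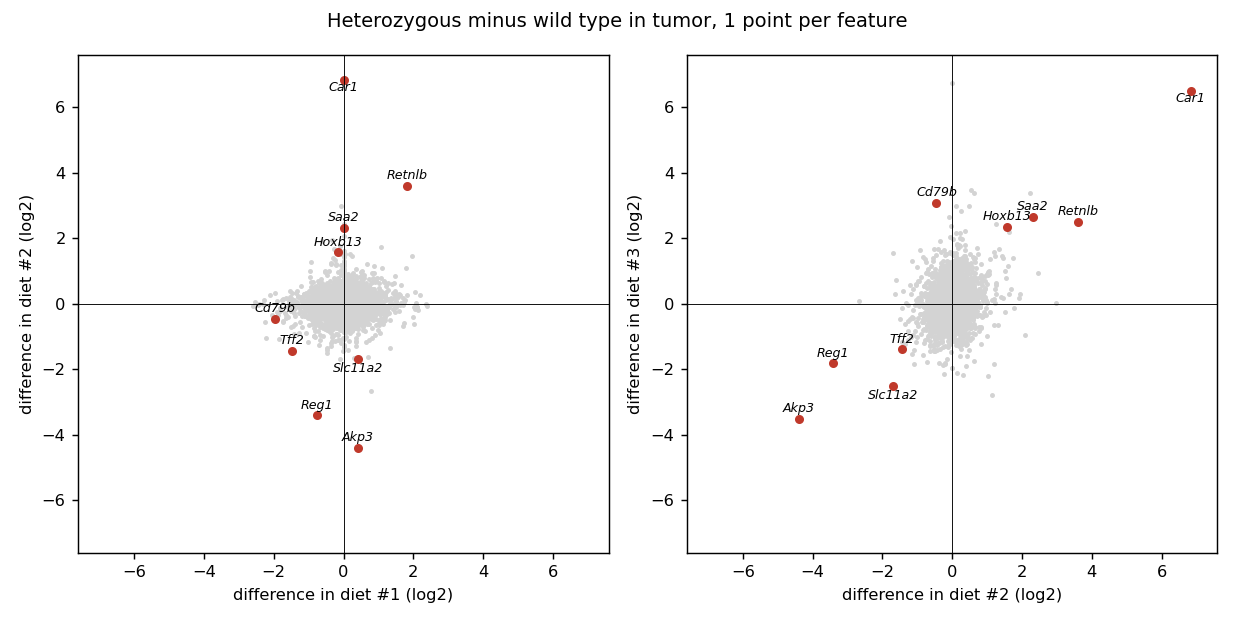
Difference between heterozygous and wild type tumor (log2) in diet #1 against diet #2 (left) and diet #2 against diet #3 (right), 1 grey point per feature and 9 genes in red. Car1, Akp3, Slc11a2 and Reg1 lie far from 0 in diets #2 and #3 together, while the cloud of features shows little relation (r = 0.054 and 0.21).

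Hormone genes of enteroendocrine cells were lower in more members than higher. Of 12 tested, 3 were lower and 0 higher by the 1.5-fold mean criterion (1.2% and 1.14% of all features). At any size 5 were lower and 1 higher in all diets (13.2% and 12.3% of all features). The median was -0.22, with -0.05 in diet #1, and it was -0.008 when no dim probe sets were dropped. Sst (somatostatin) read 193, 607 and 616 in heterozygous against 324, 824 and 936 in wild type tumors, a difference of -0.60 ± 0.14 (SE; limma adjusted p = 0.757). Cck, the hormone that empties the gall bladder, read 234, 321 and 162 against 327, 504 and 441, and its groups did not overlap. Chgb, a protein of hormone granules, read 1251, 1014 and 1048 against 1405, 1550 and 2074. Gip, an incretin of the proximal gut, differed by 0.31, -0.62 and -0.89, so diet #1 went the other way. Summed enteroendocrine markers had ratios of 0.946, 0.788 and 0.619.

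Globin genes were lower as well. Hbb-b2, an adult beta globin, read 301, 430 and 370 against 601, 670 and 914, without overlap, a difference of -0.98 ± 0.17 (SE; limma adjusted p = 0.735). The same array pairs of normal intestine differed by -1.09. Hba-a1 differed by -0.76 in tumor and by -1.01 in normal intestine. Of 7 tested erythroid genes, 3 were lower by the 1.5-fold mean criterion (1.2% of all features). The list median was -0.36, with 0 in diet #1, and the list also holds Car1, which went the other way (4.44). The summed erythroid markers, without Car1, had ratios of 0.659, 0.761 and 0.384. The content of blood in the samples was not tested.

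Immune and inflammatory genes were higher in more members than lower, with the widest differences in diet #3. Of 26 tested myeloid and inflammatory genes, 3 were higher and 0 lower by the 1.5-fold mean criterion (1.14% and 1.2% of all features). The median was 0.29, with 0 in diet #1, and it was 0.20 when no dim probe sets were dropped. On intensities as deposited it was 0.165, beside -0.13 over all features. At any size 10 were higher and 1 lower in all diets, beside 12.3% and 13.2% of all features. Arg1, arginase of alternatively activated macrophages, was at 230.0, 237 and 340 in heterozygous and at the floor, 103 and 115 in wild type tumors, a difference of 1.15 ± 0.20 (SE; limma adjusted p = 0.735). Saa3, an inducible serum amyloid A, read 1465, 676 and 1200 against 625, 523 and 349, without overlap. Yet summed markers of macrophages and granulocytes had ratios of 1.09, 0.994 and 1.03. Lilr4b, a receptor of myeloid and mast cells, read 226, 108 and 185 against 161, 60.8 and 103.

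Mast cell markers as a sum were higher in the heterozygous tumors of diets #2 and #3 and lower in that of diet #1. Cma2, a mast cell chymase, read 4339, 2970 and 1482 in heterozygous against 3355, 1419 and 742 in wild type tumors, a difference of 0.81 ± 0.18 (SE; limma adjusted p = 0.757). Mcpt1, the chymase of mucosal mast cells, read 13079, 9411 and 8360 against 15386, 6525 and 4051, and so was lower in the heterozygous tumor of diet #1. Summed mast cell markers had ratios of 0.84, 1.5 and 2.22. Srgn, the proteoglycan core of granules in many blood cells, differed by 0.60, 0.37 and 1.65. Of 8 tested genes of the mast cell list, which does not hold Cma2, Srgn alone met the 1.5-fold mean criterion.

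Lymphocyte genes stood out in a single tumor, the heterozygous one of diet #3. Cd79a, a chain of the B cell receptor complex, read 328, 259 and 943 against the floor, 216 and 133. Ms4a1 (CD20) read 399, 199 and 1308 against 455, 211 and 211, and Cd79b read at the floor, 123 and 1042 against 566, 169 and 123. Without diet #3 the differences of Ms4a1 and Cd79b turned to -0.14 and -1.21. T cell markers summed to 356 in that tumor and 106 in its wild type partner, a ratio of 3.37, against 0.885 in diet #2. In diet #1 all T cell markers were at the floor on both tumor arrays, so no ratio can be read there. Summed B and plasma cell markers, with far brighter immunoglobulin genes, had ratios of 1.06, 0.95 and 1.11 in the 3 diets. Of 17 tested B and plasma cell genes 1, Cd79a, was higher by the 1.5-fold mean criterion, and of 11 tested T and NK cell genes 0 were. Interferon response genes had medians of -0.31, 0.05 and 0.30 in the 3 diets; Isg15 differed by -2.26, -0.56 and -0.08. Genes of MHC class I and II, of which 17 were tested, had a median of 0.16 and 0 that met this criterion.

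Stromal lists had medians slightly above that of all features. The medians were 0.08 for collagen and matrix and 0.09 for smooth muscle, beside -0.01 over all features. On intensities as deposited they were -0.02 and -0.05, beside -0.13 over all features. Of 49 tested collagen and matrix genes, 15 were higher and 1 lower in all diets at any size (12.3% and 13.2% of all features), 1 met the 1.5-fold mean criterion, and the median was 0.08. Postn, a matrix protein of fibroblasts, read 338, 620 and 468 in heterozygous against 194, 400 and 339 in wild type tumors, a difference of 0.63 ± 0.14 (SE; limma adjusted p = 0.757). Vim, the filament of mesenchymal cells, differed by 0.55 ± 0.14 (SE; limma adjusted p = 0.764), and Tagln, of smooth muscle, by 0.53. Fhl1, a LIM protein of muscle, read 1532, 1138 and 1191 against 859, 658 and 881, without overlap. A second Fhl1 probe set gave 0.31 and another was at the floor on all 6 arrays. Summed fibroblast markers had ratios of 1.06, 1.26 and 1.14, and smooth muscle markers of 1.41, 1.2 and 1.04. Adipocyte markers had ratios of 0.419, 0.539 and 0.915. All of these markers were at the floor in the heterozygous tumor of diet #1, so the ratio of that diet depends on the floor. Endothelial genes had a median of 0.03 (-0.02 as deposited), and Sox17 and Cdh5 differed by -0.51 and -0.68.

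The remaining rule-named genes that were higher have varied roles. Stmn3, a microtubule-binding stathmin of neurons, read 650, 126 and 127 against 358, 65.9 and 77.8, and a second, dim probe set gave -0.09. Ethe1, a mitochondrial enzyme of sulfide breakdown, read 1549, 3072 and 2212 against 1028, 1685 and 1312. Slc44a4, a choline-transporter-like protein of colon epithelium, read 4051, 4232 and 4246 against 2381, 3042 and 2632, without overlap. Tfcp2l1, a transcription factor, differed by 0.71, Anxa3, an annexin, by 0.72, Pnliprp2, a pancreatic-type lipase, by 0.99 and Adamdec1, a secreted metalloprotease, by 0.56. Each was higher in the heterozygous tumor of every diet, and limma's adjusted p was between 0.735 and 0.757 for these 7 genes. Ltf, the iron-binding lactotransferrin, completed the lower genes, at 194, 136 and 144 against 289, 226 and 302.

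Genes of growth and of the Wnt pathway differed little. Of 31 tested Wnt targets, 1 was higher by the 1.5-fold mean criterion, the Wnt antagonist Apcdd1 (0.91), and 1 was lower, the angiogenic factor Vegfa (-0.64). Gpx2, a glutathione peroxidase that Wnt signalling induces, read 14397, 11559 and 12017 in heterozygous against 9643, 10381 and 8461 in wild type tumors. Its groups did not overlap, though the difference was 0.41 and limma's adjusted p 0.817. DNA replication genes (36 tested) and mitotic genes (38 tested) had 0 that met the 1.5-fold mean criterion. Cdc45, a subunit of the replicative helicase, differed by -0.47, with the heterozygous value of diet #1 at the floor, and Racgap1, of cytokinesis, by -0.40. Among 34 tested nucleolar genes 8 were lower and 2 higher in all diets at any size (13.2% and 12.3% of all features), and 1 met the 1.5-fold mean criterion, the dim Nolc1 (-0.77). The regenerative and fetal epithelium list, with 29 tested, was split: Anxa3, Hbegf (an EGF receptor ligand, 0.64) and Reg3g were higher and Clu, a secreted chaperone that marks regenerating cells, was lower, at 4729, 3812 and 3234 against 8327, 4836 and 4935. A second Clu probe set gave -0.50. Casp6, an executioner caspase, differed by -0.70 and Plk2, a p53 target kinase, by 0.48.

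Lists chosen for their link to DNA methylation did not all lean the same way. Of 18 tested imprinted genes, whose parental methylation sets which copy is read, 4 were higher and 1 lower in all diets at any size (12.3% and 13.2% of all features). Their median was 0.04 (-0.07 on intensities as deposited, beside -0.13 over all features there). Tspan32 was higher by the 1.5-fold mean criterion (0.71), and Peg3, a paternally expressed zinc finger gene, read at the floor, 121 and 112.5 in heterozygous against 249, 156 and 155 in wild type tumors. Other Peg3 probe sets gave 0.16 and -0.04, so the probe sets of this gene disagree. Of 42 germline and testis genes on the array, many of them normally silenced by methylation, 6 were bright enough to test, and 0 met the 1.5-fold mean criterion. Of 10 tested folate and one-carbon genes, which supply the methyl groups, Slc46a1 was lower by the 1.5-fold mean criterion. At any size 3 were lower and 0 higher in all diets (13.2% and 12.3% of all features). The median was -0.11, with -0.125, -0.171 and -0.168 in diets #1, #2 and #3, and it was 0 when no dim probe sets were dropped.

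The other lists held few genes that met the 1.5-fold mean criterion. There were 0 among Paneth cell (11 tested), heat shock (37), immediate early (36), oxidative phosphorylation (54), ribosomal protein (23) and keratin (24) genes. Glycolysis and hypoxia genes (28 tested) had 1, Vegfa, which was lower. Adipose genes (13 tested) had Agt, which was higher (0.84), and exocrine pancreas genes (14 tested) had Pnliprp2 and Pnliprp1, which were higher, and Reg1, which was lower.

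**Figure D5:**
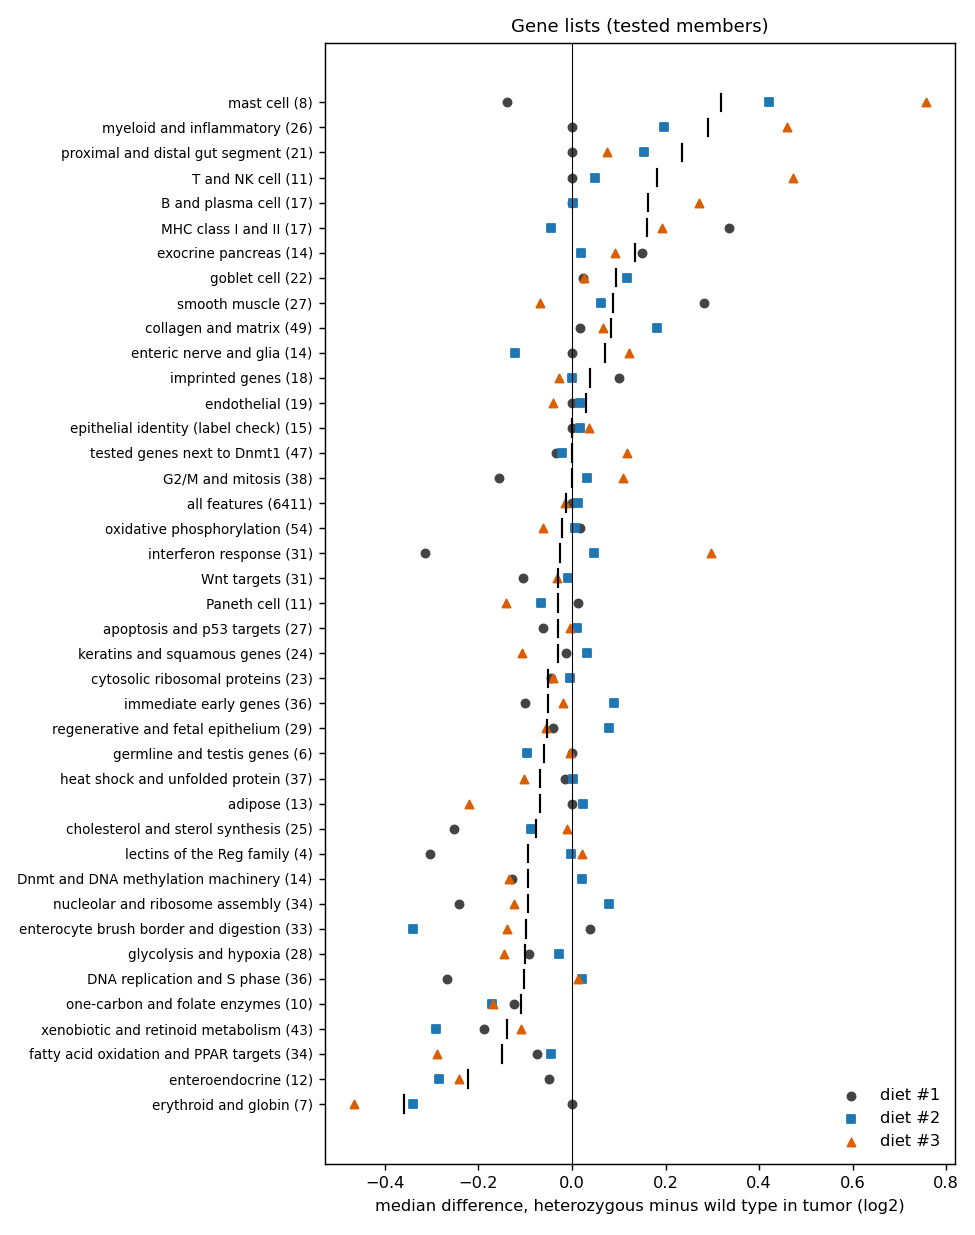
Median difference between heterozygous and wild type tumor (log2) of each gene list, with the number of tested members in brackets, 1 symbol per diet and a bar for the median of the 3-diet differences. Medians of most lists lie within 0.2 of 0, and erythroid and mast cell lists lie farthest out.

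The tumor differences were then set against those of normal intestine. No feature had a genotype difference that depended on tissue at an adjusted p under 0.05 (0%, limma with Benjamini-Hochberg adjustment; smallest adjusted p 0.605, and 321 features at an unadjusted p under 0.05), so nothing here is particular to tumors by that test. Of the 24 rule-named genes, 4 differed in the same direction as in tumor in all 3 normal pairs, 4 in the opposite direction in all 3, and Retnlb was at the floor on all 6 normal arrays. The normal pair of diet #1 had a low heterozygous value of Akp3 (-4.59) and Slc11a2 (-3.34), genes that were not low in the heterozygous tumor of that diet. Slc11a2 was lower in all 3 normal pairs, with differences of -3.34, -1.18 and -1.66. Both normal arrays of diet #2 held exocrine pancreas markers at 110419 and 117286 in summed intensity, where the remaining 4 normal arrays ranged from 2051 to 2894 and the tumor arrays from 2039 to 4426; without diet #2 the count of features that depended on tissue was again 0.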

How the data were processed

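The authors deposited linear intensities, 1 value per probe set of an Affymetrix MG_U74Av2 array. RNA was purified with Trizol, per the labels' protocols. Probe summarisation: not given in the sources used here. Quantile normalization over all 12 arrays was followed by a floor at the 20th percentile (44.8) and, for diet #1, whose deposited values stop at 50, by a common floor of 144.3, the edge of what those arrays measure. That second floor was set after first results had been seen. The dimmest 40% of probe sets by tumor mean were dropped, and a gene was represented by its brightest probe set, giving 6411 features, 5654 with a gene symbol. Symbols came from the platform annotation, matched to RefSeq for 10817 of 12422 probe sets.

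The genotype difference was fitted to the 6 tumor arrays in limma 3.58.1 (R 4.3.3) with diet as a block (2 residual degrees of freedom, 3.71 prior), and its dependence on tissue on 12 arrays. Same-diet arrays deviated together from their genotype means (r = 0.807, 0.667 and 0.591). The diet #1 arrays have their own deposited scale and floor, so these values cannot tell pairing by diet from file format. P-values were adjusted by Benjamini-Hochberg over all features. The script was tested on simulated data. The rule named, per direction, the 12 genes above the floors on all 6 arrays with the smallest p and the same sign in 3 diets, the 2 smallest p of each list, Dnmt1, Dnmt3a, Dnmt3b and Apc. A list gene outside these was chosen after its values were seen. Members and the 39 lists were chosen with earlier results of these data known.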

Additional observations from a re-analysis of the deposited data

Results flagged for a closer look

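For 4 genes every heterozygous tumor differed from its wild type partner in the direction opposite to that of every normal pair. Some of the normal differences were small or dim. Cma2 in normal intestine read at the floor, 132 and 127 in heterozygous against 195, 156.5 and 148 in wild type arrays. The normal difference of Apoc2 in diet #3 was 0.03. The genotype difference in tumor minus that in normal intestine was 1.08 for Stmn3, 1.11 for Cma2, -1.16 for Acaa1b and -0.81 for Apoc2 on the log2 scale. In limma's test of that difference the adjusted p was 0.605 for Stmn3 and Acaa1b and 0.833 for Cma2 and Apoc2, so none passed. Groups of 3 arrays were too small to be searched for outlying arrays.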

How the results depend on the processing

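The count of genotype calls in tumors stayed at 0 under all alternatives except those that leave out a diet pair, where it ran from 0 to 3 (3 without diet #1: Car1, Akp3 and Saa2). The count of features whose genotype difference depended on tissue ran from 0 to 1 in the same way (Car1, without diet #1) and was 0 otherwise. With no replicate block, that is without the pairing by diet, 0 features were called and 82 passed an unadjusted p under 0.05, against 363 with it. Features with a mean difference of at least 1.5-fold and 1 sign in all diets numbered 150, between 238 and 375 when a diet was left out (fewer diets have to agree), 97 without the lowest 60% of probe sets and 280 with the diet #1 floor left at its tied value, an alternative added after seeing the data that raises differences of genes at the floor on 1 diet #1 array. On intensities as deposited, 39 were higher and 150 lower (20.6% higher, against 48.7%), since diet #1 then has a median difference of -0.40; the median of all features moved from -0.01 to -0.13. Dnmt1 read 80.7% of wild type on the second probe set, where diet #1 was at the floor on both tumor arrays and counted as 100%. On the brighter probe set it read 48.4% after normalization. Of 79 genes recomputed, 3 changed sign in a setting, each when diet #3 was left out; leaving out 1 diet moved Ms4a1 between -0.14 and 1.275, Cd79b between -1.21 and 1.32 and Uhrf1 between -0.19 and 0.003. Genes near a floor carry folds that the floor limits, and 3 pairs limit every value.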

Other observations

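A probe set that matches the immunoglobulin kappa genes Igkv16-104 and Igk, and so lies outside the rule for named genes, was noticed after its values were seen. It read 563, 932 and 505 in the heterozygous tumors of diets #1, #2 and #3 and at the floor, 342 and 194 in the wild type tumors, a difference of 1.60 ± 0.17 (SE; limma adjusted p = 0.298). In normal intestine it read 358, 1613 and 1499 against the floor, 325 and 274.5, a difference of 2.02, so the heterozygous array was the higher of the pair in all 6 comparisons of both tissues. Another probe set, which matches Igk and Asb2, went the other way in tumor, with a difference of -0.62 (-0.86, -0.74 and -0.27 in the 3 diets). Kappa probe sets can share signal with one another. Other B and plasma cell genes had a median difference of 0.16 in tumor, with 0, 0.002 and 0.27 in diets #1, #2 and #3. On intensities as deposited that median was 0.005, beside -0.13 over all features.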
